A study of Mus musculus with 2 samples.

Results

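The cells described here are pancreatic duct cells that came along with isolated islets, 63 in a wild-type (WT) library and 27 in a high-fat diet (HFD) library, which made 90 of 9897 cells kept and of 12846 barcodes in all. They were selected on their own RNA. A cell was taken when it had at least 500 genes, at most 20% of its transcripts from mitochondrial genes, a transcript of at least 3 of the 6 genes Krt19, Spp1, Cftr, Sox9, Mmp7 and Anxa3, none of the macrophage gene C1qa, and under 40% of its transcripts from Ins1 and Ins2. These cells are called gated cells below, and the values of the 6 genes are a description of the choice, not a finding. Both libraries were islets of male C57/B6 mice aged 16 weeks, with 4 mice pooled in each. The labels name no diet for WT mice, and the study states that mice not on HFD were given standard chow. HFD mice were fed a diet in which fat supplied 60% of calories, starting when 6 weeks old and lasting 10 weeks. Dead cells had been depleted, and transcripts were counted by unique molecular identifiers (UMIs) in droplets.

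Duct cells line the tubes that carry digestive enzymes out of the pancreas, and they add a bicarbonate-rich fluid to them. They are held together by tight junctions and built on simple keratins, and Sox9 is among the transcription factors that mark them from development onward. In the injured pancreas they can take up wound and mucosal defence genes, and duct-like cells are the hallmark of pancreatic cancer precursors.

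Each group was a single library, so diet, islet preparation and library cannot be told apart, no test of the diet was possible, and every 95% interval covers counting error only. UMIs were summed over the gated cells of a library and given as CPM, the UMIs of a gene over all UMIs of the same cells on the usual CPM scale. Gated WT cells held 1095513 UMIs in all, with 3079 in the lowest cell, a median of 13018 and 59056 in the highest. Gated HFD cells held 195531 UMIs, from 1768 through a median of 7095 to 17721. The HFD sums were therefore the less precise side of every ratio. The libraries shared 9 barcodes, and 1 of the gated WT barcodes was among them.

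Gated cells were a smaller share of the HFD library. They made 2.42% of 2600 kept WT cells (exact Clopper-Pearson interval 1.87% to 3.09%) and 0.370% of 7297 kept HFD cells (0.244% to 0.538%). The WT share was 6.55 times the HFD share (exact interval 4.11 to 10.7). Among cells with under 40% insulin transcripts, gated cells were 9.86% of 639 in WT (7.66% to 12.4%) and 2.83% of 953 in HFD (1.88% to 4.10%). Cells with endothelial, fibroblast or acinar markers also took smaller shares in HFD. Endothelial cells were 6.27% of kept cells in WT and 2.18% in HFD, fibroblast and stellate cells 2.35% and 0.315%, and acinar cells 0.462% and 0.0822%. The part that the islet preparation had in these shares was not tested. With kept cells of at least 2000 UMIs thinned to 2000 before the choice, gated cells were 2.34% of 2481 WT cells and 0.284% of 7047 HFD cells. This left out 119 WT and 250 HFD cells with fewer UMIs, among them 1 gated HFD cell.

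Cells near the threshold of 3 genes are given as a description. Just inside it, 7 WT and 6 HFD cells had exactly 3 of the 6 genes, and all of them carried Epcam, Krt8 and Krt18. Just outside it, 5 WT and 6 HFD cells had 2 of the genes, and 1 WT cell and 5 HFD cells among these carried all of Epcam, Krt8 and Krt18. The outside HFD cells had a median of 1762 UMIs.

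The gate genes varied in how many cells they reached. Spp1, a secreted phosphoprotein, was found in every gated cell, at 1024 CPM in the lowest WT cell, 8004 in the median and 31761 in the highest, and at 2672, 7444 and 20585 in HFD. Krt19, the keratin used to stain ducts, was at 256, 2000 and 7974 CPM in WT cells and at 0, 1278 and 5803 in HFD cells. Sox9 was at 0, 543 and 1573 CPM in WT and at 97.9, 487 and 1411 in HFD. For each of these genes the ranges of cells in WT and HFD overlapped widely. Summed over cells, Krt19 was at 2005 CPM in WT and 1279 in HFD, and Sox9 at 637 and 644. Cftr, the chloride channel of duct secretion, had 30 UMIs in 10 WT cells and 2 UMIs in 2 HFD cells. On the log2 scale its HFD to WT ratio of CPM was -1.42 (-4.53 to 0.56), an interval that spanned 0. Mmp7, a matrix protease, had 114 UMIs in 29 WT cells and 1 UMI in 1 HFD cell. The plot of gate genes and other duct genes shows these values cell by cell.

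**Figure D1:**
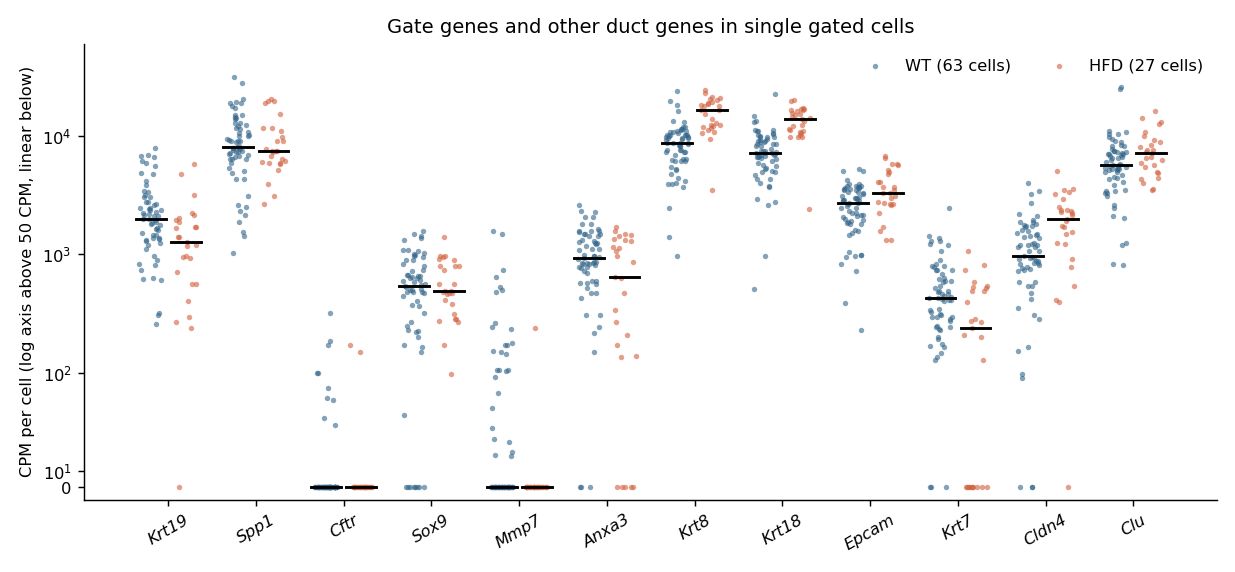
CPM of 12 genes (x axis) in each of 63 WT and 27 HFD gated cells (points, y axis logarithmic above 50 CPM), with black bars at the median. Krt8 and Krt18 lay higher in HFD cells, with medians of 16484 against 8675 CPM and 13825 against 7254 CPM, while Spp1 and Sox9 overlapped, and Cftr was at 0 in most cells of both libraries.

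Duct genes outside the choice were present too. Krt8 and Krt18, the paired keratins of simple epithelia, and the adhesion molecule Epcam were found in 100% of gated cells of each library. By the ratio of their CPM to that of the other kept cells, taken from the library where it was lower, 20 genes led. They included the keratins Krt23 and Krt17, the 14-3-3 protein Sfn, the secreted proteins Wfdc2, Lcn2 and Ptgds, and the claudin Cldn10. Also among them were the adhesion protein Fermt1, the cornified envelope protein Sprr1a, the YAP target Ankrd1, and the gate genes Sox9 and Krt19. The others were Tstd1, Apoc1, Sh2d4a, Ppp1r1b, Ces1d, 9130008F23Rik, Epn3 and Gsta3. Tstd1 was at 548 CPM in gated WT cells and 0.297 in other WT cells, and at 650 and 0.216 in HFD. Sfn was at 1914 and 2.71 CPM in WT and at 2532 and 4.36 in HFD. Thinned to 2000 UMIs, the gate gene Krt19 was seen in 93.7% of gated WT cells and 65.4% of gated HFD cells. In insulin-high cells it was seen in 0.308% and 0.0473%, a contrast that the choice itself makes. These are descriptions, since the cells were chosen on the same RNA.

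Markers of stromal and immune cells were near 0, while endothelial RNA was found in some WT cells and insulin and acinar RNA in both libraries. The 6 fibroblast and stellate markers summed to 10.0 CPM in WT and 0 in HFD, the 6 macrophage markers to 23.7 and 15.3, and the 6 T cell markers to 0 and 10.2. Of the 6 endothelial markers (Pecam1, Cdh5, Kdr, Plvap, Flt1, Emcn), all were present in WT at a summed 1071 CPM, from 0 in the lowest and median cell to 12845 in the highest, and 5 were at 0 in HFD, where the sum was 5.11 CPM. In WT 8 cells had at least 3 of these markers, and in HFD 0. Insulin exceeded 10% of UMIs in 2 WT cells and 1 HFD cell, and its median was 0.362% and 0.827%. Transcripts of at least 3 acinar markers were found in 58 WT and 27 HFD cells, and of at least 3 beta cell markers in 61 and 27. In all, 9 WT cells and 1 HFD cell had at least 3 endothelial, stromal, immune or glial markers, or a share of at least 5% acinar, 5% other hormone or 10% insulin transcripts. These are called cells of another class. Values of several genes are given with and without them, and the counts of list members with them only. The summed acinar genes were at 1084 CPM in WT and 2542 in HFD, and the other kept cells had 1475 and 1317. The part of free RNA in the acinar values was not tested.

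Of 7065 genes with at least 20 UMIs over the gated cells, 265 (3.75%) were at least 2-fold higher in HFD and 1101 (15.6%) at least 2-fold lower. The median gene was at -0.18 on the log2 scale of the HFD to WT ratio, and ribosomal protein genes had a median of 0.00. These counts are sizes of difference between 2 libraries, and low counts pass 2-fold more easily. With cells of at most 15000 UMIs, which left 35 WT and 26 HFD gated cells, 230 genes were at least 2-fold higher and 376 lower. Fewer genes reached 20 UMIs in these cells, so these counts are not shares of the 7065. The genes named next were ordered by the bound of the interval nearest to no change.

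Of the 12 genes highest in HFD by this order, 11 are named here: Kcnq1ot1, Sesn2, Chac1, Palld, Krt23, Apoe, Fam107b, Pigr, Sqstm1, Gdf15 and Cnn1. Apoe, the lipid-carrying apolipoprotein, was at 0, 1553 and 19624 CPM in the lowest, median and highest WT cell and at 1729, 5838 and 19614 in HFD. Its sum was 2701 CPM in WT (2605 to 2800) and 7119 in HFD (6750 to 7503), a ratio of 2.64 (2.47 to 2.81). Every HFD cell thus lay above the WT median, though the ranges overlapped. Apoc1, the neighbouring apolipoprotein gene, was at 59.3 and 179 CPM, a ratio of 3.02 (1.94 to 4.62). In GRCm38 Apoc1 (chr7:19689481-19692660) and Apoe (chr7:19696109-19699188) lie 3448 bases apart on the minus strand. In other cells of the same libraries the log2 ratio of Apoe was 0.70 (insulin-high), 0.97 (fibroblast and stellate), 1.52 (acinar) and -0.36 (endothelial).

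Palld, which organises actin bundles, was at 0, 202 and 2791 CPM in WT cells and at 0, 1194 and 4060 in HFD cells, with a ratio of sums of 3.14 (2.73 to 3.60), a log2 ratio of 1.65 that was 2.85 (2.43 to 3.28) in cells of at most 15000 UMIs. Cnn1, another actin-binding gene, had 20 WT UMIs in 8 cells and 16 HFD UMIs in 8 cells (ratio 4.48, 2.17 to 9.10), and its log2 ratio was 2.16, or 1.27 (-0.08 to 2.73) in cells of at most 15000 UMIs. Pigr, the receptor that carries IgA across epithelia, had a UMI in 11 WT cells (17.5%) and 15 HFD cells (55.6%), at 42.0 and 164 CPM. Fam107b was at 309 and 921 CPM, with a log2 ratio of 1.57 that was 2.35 under the same limit on UMIs, and that of Krt23 went from 1.87 to 2.51. Kcnq1ot1, a long noncoding RNA antisense to Kcnq1, was at 122 CPM in WT and 598 in HFD, while Kcnq1 was at 77.6 and 86.9, and the other kept cells had Kcnq1ot1 at 129 and 124 CPM.

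Stress genes stood among them. Sqstm1, the autophagy receptor p62, was at 0, 327 and 1263 CPM in WT cells and at 0, 825 and 2429 in HFD cells (ratio 2.67, 2.26 to 3.15). In insulin-high cells it was at 77.3 and 78.7 CPM. Sesn2 and Chac1, both known targets of the stress factor ATF4, had 26 and 9 WT UMIs and 29 and 12 HFD UMIs, with log2 ratios of 2.64 (1.83 to 3.47) and 2.90 (1.53 to 4.33). Gdf15, a stress-induced hormone, was at 82.2 and 261 CPM. Chac1 was low even in HFD, at 61.4 CPM, and the other kept HFD cells had 75.1 CPM. In insulin-high cells Chac1 was also higher in HFD, by 1.67 on the log2 scale.

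**Figure D2:**
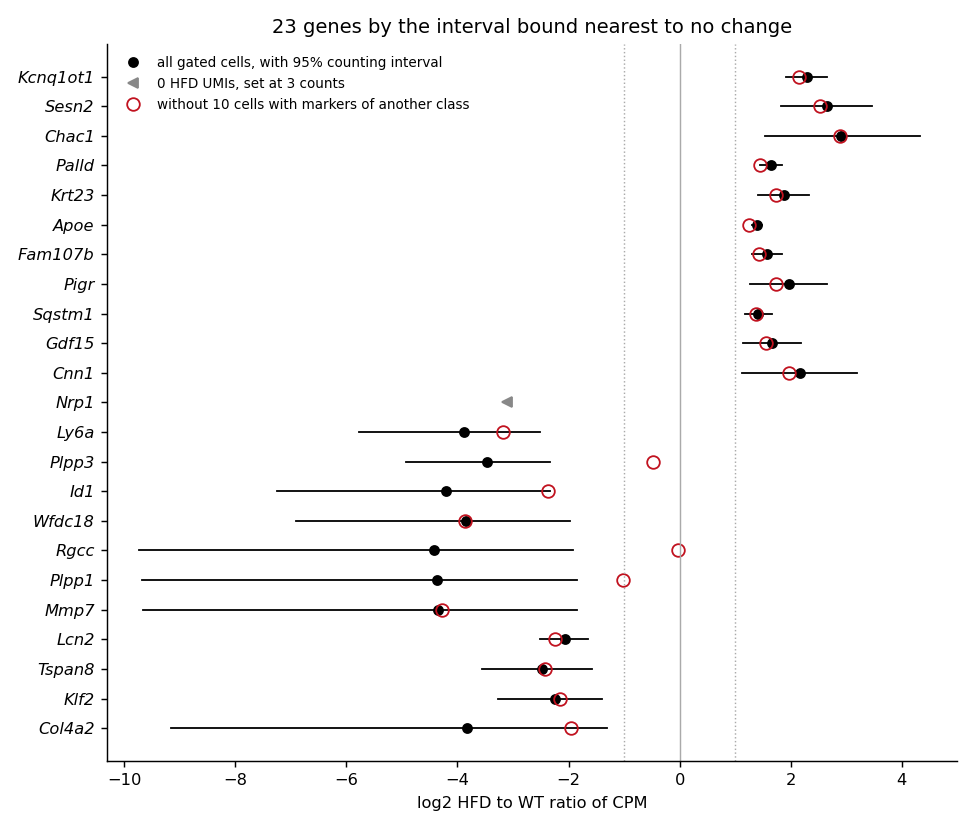
Log2 ratio of HFD to WT CPM (x axis) for 23 genes (y axis), as black points with 95% counting intervals for all gated cells, a grey triangle for 0 HFD UMIs set at 3 counts, and red circles without 10 cells that carried markers of another class. The 11 higher genes shown stayed at 1.25 or more without those cells, while Rgcc went from -4.42 to -0.03 and Plpp3 from -3.47 to -0.48.

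The 12 genes lowest in HFD were Nrp1, Ly6a, Plpp3, Id1, Wfdc18, Rgcc, Plpp1, Mmp7, Lcn2, Tspan8, Klf2 and Col4a2, and they fell into 2 kinds. Nrp1, Plpp3, Rgcc, Plpp1 and Col4a2, which endothelial cells also express, lost most of their WT counts without the cells of another class. Nrp1 went from 145 to 11 WT UMIs with 0 in HFD, Plpp3 from 372 to 41 UMIs and Rgcc from 120 to 5. Id1 went from -4.20 to -2.38 on the log2 scale and Ly6a from -3.88 to -3.18, and Col4a2 from -3.84 to -1.95 (-7.33 to 0.70), an interval that spanned 0. The other 5 moved by less than 0.2 without those cells. Tspan8, a tetraspanin of ductal and tumour cells, was at 0, 205 and 2067 CPM in WT cells and at 0, 0 and 622 in HFD cells, where it was seen in 5 of them, and its log2 ratio was -2.48 with all cells and -2.42 without. Wfdc18, a secreted protease inhibitor, was found in 27 WT cells and 1 HFD cell, with ratios of -3.85 and -3.86. Klf2 was at -2.25 and -2.14, and Mmp7, a gate gene, at -4.35 and -4.27. Lcn2, an iron-binding defence protein, rested on 1 WT cell that held 59.9% of its WT UMIs, and its log2 ratio was -1.24 without the highest cell of each library and -0.30 in cells of at most 15000 UMIs, against -2.07.

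Keratin and junction genes leaned higher in HFD. Of 22 genes in the list, 20 had enough UMIs, of which 1 was at least 2-fold higher and 2 lower, beside 3.75% and 15.6% of all genes, with a median log2 ratio of 0.47 beside -0.18 over all genes. Krt8 was at 961, 8675 and 23992 CPM in WT cells and at 3467, 16484 and 24283 in HFD cells. Its sum was 1.72 times higher in HFD (1.66 to 1.80), and that of its partner Krt18 1.70 times (1.62 to 1.77). Both genes lay about as far apart between libraries, and in GRCm38 they are neighbours on opposite strands with 23697 bases between them, Krt8 at chr15:101996698-102004482 and Krt18 at chr15:102028180-102032027. Cldn4, a tight junction claudin, was at 1097 and 2158 CPM (ratio 1.97, 1.76 to 2.20), Epcam at 2475 and 3723, Cldn7 at 897 and 1325, and E-cadherin Cdh1 at 417 and 629. Krt23 was the member past 2-fold, at 92.2 and 338 CPM. The duct keratins Krt19 and Krt7 went the other way, with log2 ratios of -0.65 and -0.43. Krt19 is a gate gene, so its value describes the choice. Cldn3 was at -0.15, with an interval that spanned 0 and did not span it without the cells of another class (-0.30, -0.53 to -0.09).

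ER stress genes also leaned higher. Of 17 members with enough UMIs 4 were at least 2-fold higher and 1 lower, beside 3.75% and 15.6% of all genes, with a median of 0.55. Hspa5, the main ER chaperone, was at 165, 810 and 2158 CPM in WT cells and at 0, 1767 and 6264 in HFD cells, and its sum was 2.06 times higher (1.82 to 2.33). Dnajb9, a co-chaperone, was at 178 and 414 CPM, Xbp1 at 295 and 511, Herpud1 at 339 and 568 and the stress factor Atf4 at 802 and 1135. Ddit3, the death-linked factor downstream of Atf4, was at 72.1 and 71.6 CPM. In insulin-high cells the same list had a median of 0.37 and in endothelial cells 0.19.

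Most immediate early genes, which cells switch on within minutes of a stimulus, were lower in HFD. All 23 had enough UMIs, 20 were below 0, 7 were at least 2-fold lower and 1 higher, beside 15.6% and 3.75% of all genes, and the median was -0.60. Fos was at 211, 2247 and 12508 CPM in WT cells and at 0, 541 and 4684 in HFD cells. Atf3 was at 0, 5316 and 11783 CPM in WT and at 0, 1244 and 5896 in HFD. The median HFD cell was far below the median WT cell for both, though the ranges overlapped. Their ratios of sums were 0.370 (0.318 to 0.430) and 0.385 (0.343 to 0.431). Nr4a1 had a ratio of 0.365 and Klf2 of 0.210. Fosl1, a late AP-1 subunit, went the other way, at 0, 357 and 1939 CPM in WT cells and 0, 812 and 2359 in HFD cells (ratio 2.38, 2.02 to 2.80). The same list had a median of -0.87 in insulin-high cells and -1.09 in endothelial cells. Dissociation can induce these genes, and its part was not tested.

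**Figure D3:**
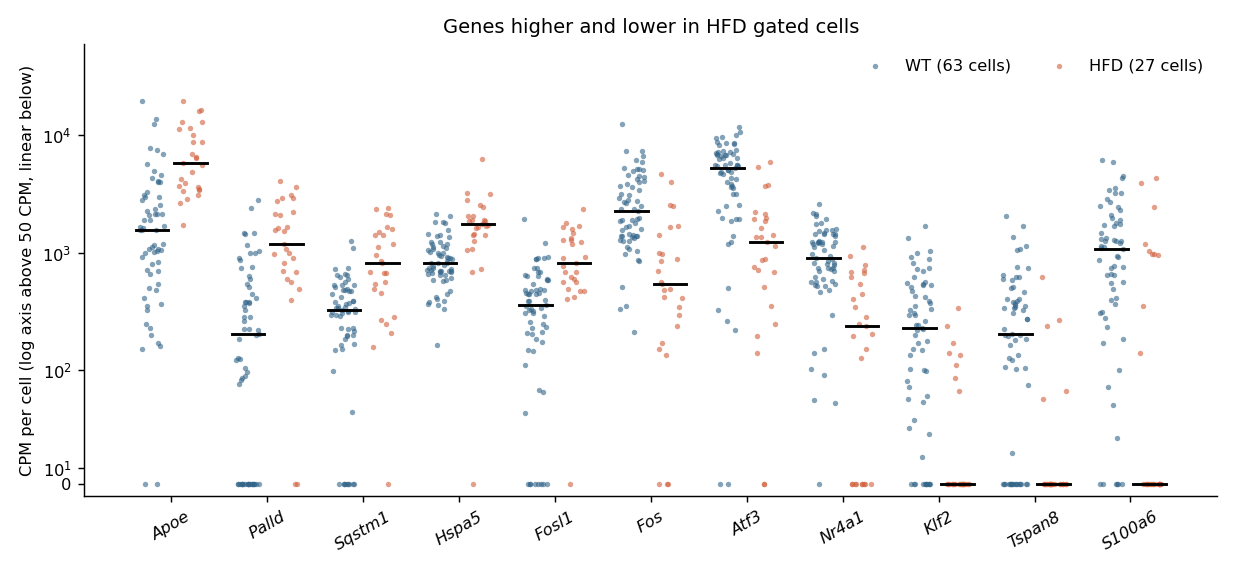
CPM of 11 genes (x axis) in each of 63 WT and 27 HFD gated cells (points, y axis logarithmic above 50 CPM), with black bars at the median. Median values went from 1553 to 5838 CPM for Apoe and from 202 to 1194 for Palld, and from 5316 to 1244 for Atf3, while Klf2, Tspan8 and S100a6 were at a median of 0 in HFD.

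Promoter sequences are shown for a stress gene, an immediate early gene and a junction gene described above, chosen because they hold the motifs named next, from RefSeq on GRCm38.p6, each running from 250 bases before the start of transcription to 50 after it. Chac1 (chr2:119350992-119351291, plus strand) and Atf3 (chr1:191183284-191183583, minus strand) hold the CARE motif that ATF4 binds, TGATGNAA on either strand, and Cldn4 (chr5:134946885-134947184, minus strand) holds 2 copies of the AP-1 motif TGANTCA. Capitals mark these motifs.

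Chac1: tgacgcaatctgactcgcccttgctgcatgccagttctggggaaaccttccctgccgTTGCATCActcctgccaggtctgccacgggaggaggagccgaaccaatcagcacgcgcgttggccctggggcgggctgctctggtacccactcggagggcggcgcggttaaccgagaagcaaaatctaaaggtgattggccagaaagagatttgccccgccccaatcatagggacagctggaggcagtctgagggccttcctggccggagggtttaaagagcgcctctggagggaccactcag

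Atf3: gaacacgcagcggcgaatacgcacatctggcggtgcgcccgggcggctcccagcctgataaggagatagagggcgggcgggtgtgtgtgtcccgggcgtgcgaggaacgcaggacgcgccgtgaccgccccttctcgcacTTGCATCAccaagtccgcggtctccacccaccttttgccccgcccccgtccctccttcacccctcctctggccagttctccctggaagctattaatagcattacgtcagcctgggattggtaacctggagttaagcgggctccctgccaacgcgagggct

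Cldn4: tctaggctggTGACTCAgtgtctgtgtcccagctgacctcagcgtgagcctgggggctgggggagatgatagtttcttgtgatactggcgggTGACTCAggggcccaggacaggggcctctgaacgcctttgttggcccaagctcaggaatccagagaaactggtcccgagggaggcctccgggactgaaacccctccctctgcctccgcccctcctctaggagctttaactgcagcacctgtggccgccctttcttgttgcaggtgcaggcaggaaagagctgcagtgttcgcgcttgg

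The CARE match stood at -193 from the start in Chac1 and at -110 in Atf3, and the AP-1 matches at -240 and -158 in Cldn4. CARE was found in 3.97% of 32851 such windows and AP-1 in 7.81%. Of the 12 genes highest in HFD, 11 had a window in the table and 2 of these held CARE, against 4.51% of all genes with a window. Among the 12 lowest, 9 had a window and 1 of these held CARE. Chac1 and Atf3 share the motif and lay on opposite sides, at 2.90 and -1.38 on the log2 scale. A match describes the letters only.

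Transcription factors of duct cells leaned lower in HFD, with 12 below 0 and 9 above. Of 21 with enough UMIs 7 were at least 2-fold lower and 1 higher, beside 15.6% and 3.75% of all genes, with a median of -0.69. Sox9 was at 0.02, with an interval from -0.27 to 0.29. Onecut2 was at 96.8 and 25.6, Gata6 at 220 and 113, and Sox4 at 666 and 414. Hnf4a, a factor of liver and gut epithelia, was the member past 2-fold higher, with 34 WT and 19 HFD UMIs (31.0 and 97.2 CPM, ratio 3.13, 1.69 to 5.65). Hes1, the main Notch target, was at 0, 481 and 2680 CPM in WT cells and at 0, 196 and 1600 in HFD cells. Its ratio of sums was 0.405 (0.301 to 0.534), or 0.444 without the cells of another class. Notch1 had 78 of 1095513 UMIs in WT and 4 of 195531 in HFD. Of the Hippo targets, Cyr61 was at 1025 and 1110 CPM and Ankrd1 at 613 and 834, although within subgroup 2 of the cells described last Ankrd1 was lower in HFD, at 2070 and 884 CPM (log2 -1.23, -1.49 to -0.97). The list of Notch and Hippo genes had a median of 0.08. Of 16 members 0 were past 2-fold higher and 7 lower, beside 3.75% and 15.6% of all genes.

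Genes of bicarbonate and fluid secretion had a median of -0.05 over 16 genes, with 0 past 2-fold higher and 3 lower. Over all genes these shares were 3.75% and 15.6%. Car2, the carbonic anhydrase that supplies bicarbonate, was at 172 and 61.4 CPM (ratio 0.358, 0.182 to 0.640), and 1 WT cell held 38.3% of its WT UMIs. Atp1b1, a subunit of the sodium pump, was at 964 and 982 CPM. The secretin receptor Sctr had 7 UMIs in WT and 0 in HFD. These counts give no ratio, since 0 in HFD allows up to 15.3 CPM. The cholecystokinin receptors Cckar and Cckbr had 0 UMIs in gated cells of both libraries, which allows up to 2.74 CPM in WT and 15.3 in HFD. The primary cilium genes had a median of -0.40 over 17 genes. Pkhd1, the fibrocystin gene of the list, was at 114 and 102 CPM.

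Genes of injury, metaplasia and defence went both ways. S100a6, a calcium-binding protein, was seen in 57 of 63 WT cells and 10 of 27 HFD cells, at 933 and 481 CPM, with a log2 ratio of -0.96 that was -1.96 in cells of at most 15000 UMIs. Anxa1 was found in 29 WT cells and 1 HFD cell, and Pdpn in 34 and 2. By contrast Tagln2 was at 1212 and 1862 CPM (ratio 1.54, 1.36 to 1.73) and Anxa2 at 1486 and 1979. The list had 22 genes with enough UMIs, 0 past 2-fold higher and 5 lower, and a median of 0.17. Among secreted defence genes 3 of 13 were at least 2-fold higher and 3 lower, with a median of 0.07. Beside both lists, 3.75% of all genes were past 2-fold higher and 15.6% lower. Ambp, a plasma protease inhibitor, was higher at 289 and 609 CPM, while Wfdc2 was lower at 276 and 179. Clu, the chaperone clusterin, was at 7234 and 7789 CPM, and its log2 ratio turned from 0.11 to -0.05 without the cells of another class.

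Interferon response genes leaned lower. Of 15 genes 0 were past 2-fold higher and 5 lower, beside 3.75% and 15.6% of all genes, with a median of -0.57. Bst2, the tetherin gene, was seen in 45 WT cells and 4 HFD cells (143 and 25.6 CPM), and Ifitm3 was at 436 and 194 CPM. Without the cells of another class the log2 ratio of Bst2 was -2.15, against -2.49. Of 17 MHC class I genes 2 were past 2-fold higher and 2 lower, so that the lower share was under the 15.6% of all genes and the higher share over 3.75%, while the median was -0.46. H2-K1 was at 765 and 880 CPM and its partner B2m at 288 and 189. H2-Q6 and H2-Q7 are near-identical copies whose reads may be split. Of 17 cytokine and NF-kB genes 1 was past 2-fold higher and 3 lower, beside 3.75% and 15.6% of all genes. The median of the 17 was 0.02. Cxcl2, a neutrophil chemokine, was the higher one, in 22 WT and 15 HFD cells (ratio 2.12, 1.75 to 2.56, and 1.84 without the cells of another class). Tnfrsf12a, the TWEAK receptor, was seen in every cell and was at 1463 and 2526 CPM.

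Of 22 lipid handling genes 2 were past 2-fold higher and 3 lower, with a median of -0.27, and the higher members were Apoe and Apoc1. Of 14 hormone and growth factor receptors 1 was higher and 2 lower, and the higher one was Fgfr1 at 149 and 322 CPM. Beside the lipid and receptor lists, 3.75% of all genes were past 2-fold higher and 15.6% lower. Of 18 cell cycle genes 4 had enough UMIs, and the list summed to 135 CPM in WT and 102 in HFD, while Mki67 had 0 UMIs in both libraries and Top2a 1 UMI in WT.

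**Figure D4:**
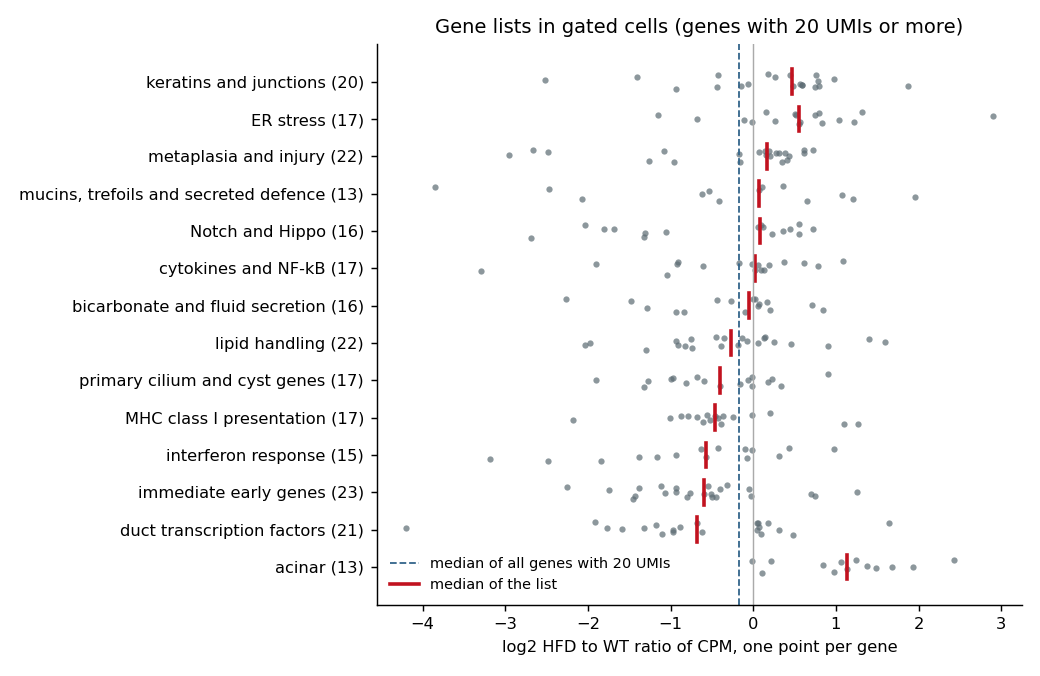
Log2 ratio of HFD to WT CPM (x axis) of each gene with at least 20 UMIs (points) in 14 lists (y axis, number of genes in brackets), with list medians in red and the median of all genes (-0.18) as a dashed line. Keratins and junctions (0.47) and ER stress (0.55) lay above that line, and immediate early genes (-0.60) and duct transcription factors (-0.69) below it.

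Gated cells formed 3 subgroups when clustered without the gate, hormone and acinar genes. Subgroup 1 held 46 WT and 4 HFD cells and was led by Kcne3, Flrt2, Anxa1 and Pdpn. Subgroup 2 held 10 WT and 23 HFD cells and was led by Pigr, Mthfd2, Ankrd1, Lcn2, Fhl2, Sesn2, Tmod1, Krt23, Cldn10 and Palld. Subgroup 3 held 7 WT cells, each with at least 3 endothelial markers, and was led by Esm1 and other vessel genes. The leading genes define the subgroups and are no result, and sizes are not compared between libraries, since genes that differ between them entered the clustering.

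Subgroup 2 held cells of both libraries, so values could be set side by side within it, as descriptions of cells clustered on the same genes. Of the 12 genes highest in HFD, 11 were higher in WT subgroup 2 than in WT subgroup 1, with a median log2 ratio of 1.59. Pigr, Sesn2, Krt23 and Palld among them also lead subgroup 2, so this direction was partly set by the clustering. Krt8 was at 8080 CPM in WT cells of subgroup 1 and 14064 in WT cells of subgroup 2, beside 16326 in HFD cells of subgroup 2. Apoe was at 2163, 4909 and 7568 CPM in the same order and Palld at 346, 1223 and 1779. For these 3 genes, the 10 WT cells had values between those of WT cells of subgroup 1 and HFD cells of subgroup 2. These genes were not left out of the clustering, so it could set this order, which is no result. The 4 HFD cells of subgroup 1 were at 11423, 2948 and 632 CPM, below the 10 WT cells. The 12 higher and 12 lower genes were picked on their ratios over all gated cells, and most HFD cells fell in subgroup 2. Their directions within it were thus largely set by that choice and are no result. Within subgroup 2 the 12 higher genes were all higher in HFD than in WT, with a median of 0.89 and 10 intervals above 0. Of the 12 lower genes 10 gave a ratio there, all below 0, and 4 had an interval below 0, among them Tspan8 and Lcn2. All 48 WT UMIs of Tspan8 in subgroup 2 lay in 1 cell, and 1 WT cell held 59.9% of all WT UMIs of Lcn2. Klf2 was at -0.85 (-2.00 to 0.19) and Wfdc18 at -1.41 (-4.68 to 0.92). Krt8 differed there by 0.22 (0.14 to 0.29) against 0.79 over all gated cells, and Pigr by 0.16 (-0.56 to 0.86) against 1.96. S100a6 was at 1133 CPM in WT cells of subgroup 1 and 1527 in the 4 HFD cells, where 2 cells held its 29 UMIs. In subgroup 2 it was at 326 and 368 CPM. Hes1 was lower in HFD within subgroup 2, at 690 and 272 CPM (log2 -1.34, -1.83 to -0.88). Atf3 was at 5186 CPM in WT and 790 (15 UMIs) in HFD cells of subgroup 1, and at 2434 and 1728 in subgroup 2.

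**Figure D5:**
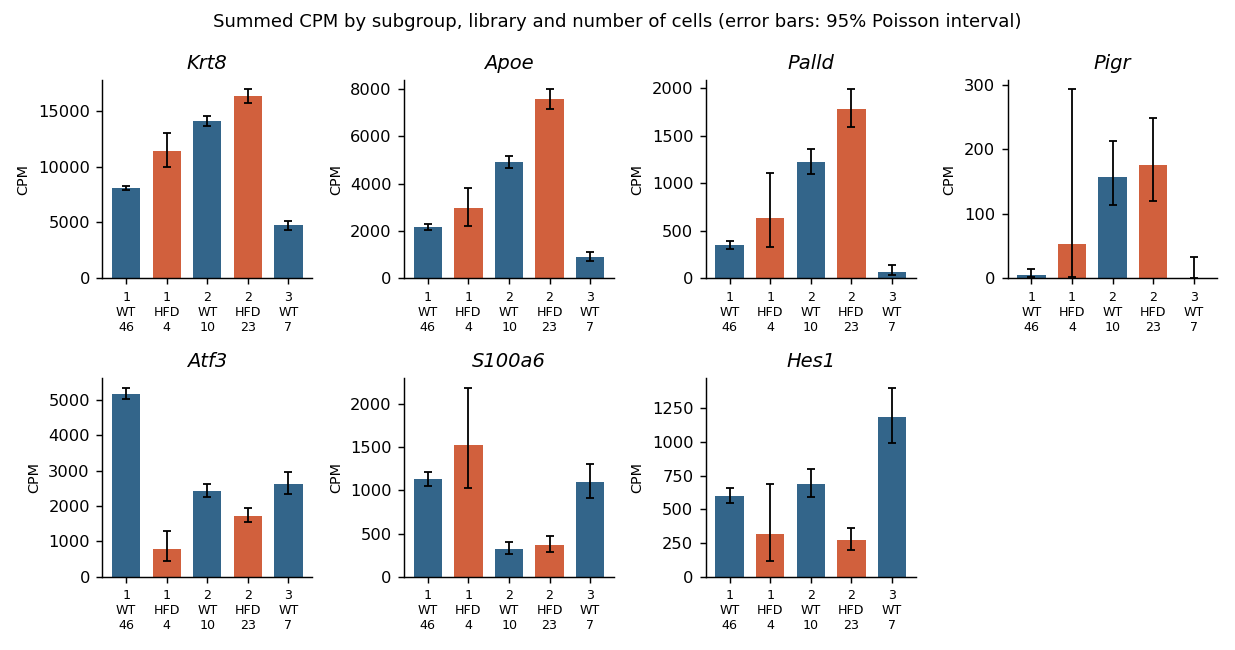
Summed CPM (y axis) of 7 genes in the cells of each subgroup and library (x axis, subgroup, library and number of cells), WT in blue and HFD in orange, with 95% Poisson intervals. Krt8, Apoe and Palld were higher in the 10 WT cells of subgroup 2 than in the 46 WT cells of subgroup 1, a direction that the clustering could set. S100a6 was at 326 and 368 CPM in WT and HFD cells of subgroup 2.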

How the data were processed

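Islet cells of 2 libraries, WT and HFD, were profiled with 10x Genomics 3' chemistry. The authors deposited UMI counts per gene and barcode, made with Cell Ranger 3.0.2 on mm10 per the submitters' processing notes, and these deposited counts were used without rescaling. Cells were kept and gated as stated in the results, and the study's own limits on library size and mitochondrial share were not applied. Counts were summed per library and divided by the sum of the gated cells. Intervals were exact (Poisson for CPM, Clopper-Pearson for shares, conditional binomial for ratios, 95%) and cover counting error only. A count of 0 was read as up to 3 counts. The ratio step was tested on simulated data. The gated members and all lists were chosen with earlier results of these data known.

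Named genes were the gate and list genes, the 20 identity genes (at least 50 CPM and 30% of gated cells in both libraries) and the 12 higher and 12 lower genes whose interval bound nearest to no change lay farthest from it, among genes with at least 20 UMIs, at least 50 CPM in the higher library and a UMI in at least 20% of its gated cells, without mitochondrial, hormone and acinar genes, and 10 genes per subgroup. Subgroups came from Leiden clustering (scanpy 1.11.5, 20 components, 15 neighbours, resolution 0.5). No doublet caller was run. Cells with at least 3 endothelial, fibroblast and stellate, mesothelial, macrophage, T, B or Schwann markers, at least 5% acinar or 5% other hormone UMIs, or at least 10% insulin UMIs were left out as an alternative. Other alternatives changed the gate, cell limits, scaling (edgeR 4.0.16 for TMM factors only), gene filter and weight of cells. Positions are from GENCODE on GRCm38. Some genes of these lists count in the totals and are not reported here.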

Additional observations from a re-analysis of the deposited data

Results flagged for a closer look

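For 3 of the 24 genes named by their interval bound in the gated duct cells, the HFD to WT difference had the opposite sign in endothelial cells of the same libraries. Apoe was at 1.40 on the log2 scale in duct cells and at -0.36 (-0.61 to -0.12) in endothelial cells, from 534 WT and 187 HFD UMIs, while it was above 0 in insulin-high, fibroblast and acinar cells. Col4a2 was at -3.84 in duct cells, or -1.95 (-7.33 to 0.70) without the cells of another class, and at 0.17 in endothelial cells. Ly6a was at -3.88, or -3.18 without those cells, and at 0.18 in endothelial cells. Genes of the lists could do the same: S100a6 was at -0.96 and 0.60, Dnajb9 at 1.22 and -0.45, Fosl2 at -1.74 and 0.33 and Dusp1 at -0.93 and 0.35. These list genes are examples, and the share of all genes that do so was not counted. Each side is 1 library, and the differences were not tested.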

How the results depend on the processing

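No paired analysis was possible because each group is 1 library. The ratio of WT to HFD shares of gated cells was between 5.83 and 8.95 under its alternatives. Of the counts at least 2-fold apart (265 higher, 1101 lower), lower genes were 376 with cells of at most 15000 UMIs, and higher genes were 457 with the mean of per-cell CPM. With at least 50 UMIs per gene they were 110 and 389, with at least 5 UMIs 586 were higher, and with at least 100 UMIs, chosen after seeing the data, they were 59 and 110. Fewer genes were tested under the limit of 15000 UMIs and the filters of 50 and 100 UMIs, and more with at least 5. These counts are therefore not shares of the same 7065 genes, and the cause was otherwise not tested. The median of mucins and secreted defence genes (0.07) was 0.27 with the mean of per-cell CPM and -0.41 with at least 100 UMIs. Spp1 went from -0.10 to 0.017 with at most 15000 UMIs, and Clu from 0.11 to -0.046 without cells of another class. With at most 15000 UMIs Chac1 was at 3.79, Ly6a at -6.38, Klf2 at -3.19 and Bst2 at -3.50, and with at least 4 gate genes Cxcl2 was at 0.46. Over all alternatives the medians of keratins and junctions lay between 0.33 and 0.57, of ER stress between 0.45 and 0.65 and of immediate early genes between -0.73 and -0.50. Median-of-ratios factors moved every log2 ratio by 0.10 and TMM factors by 0.06. Depth limits HFD most, where 3 counts are 15.3 CPM.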
